A study of Mus musculus with 8 samples.

Results

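The 33 genes described here encode the digestive enzymes of the pancreatic acinar cell, together with proteins of its secretory granules and 3 transcription factors. They were taken from the whole table by matching Ensembl identifiers to a fixed list of symbols, and all 33 were matched among 54532 identifiers. The list was drawn up with earlier results of these data known, so the choice was not blind to the measured values. The RNA came from primary mouse islets, the hormone-secreting clusters of the pancreas. Pancreases of mice aged 25 to 30 weeks were inflated with collagenase P and digested, and islets were picked by hand and kept overnight in culture. Islets were then given either DMSO, the solvent, or DMXAA at 50 µg/mL for 3 h. DMXAA is a small molecule that activates mouse STING, the adaptor through which cells answer DNA in the cytosol with interferon. Mice were either wild-type or carried a Sting-/- genotype, and each of the 4 combinations of genotype and agent had 2 libraries. Whether a group's 2 libraries stand for different animals or for pools is not stated in the labels, and the p-values therefore reflect library-to-library spread that may be technical. No acinar cell was labelled as a sample of its own, and the exocrine transcripts were measured only as they occurred in islet RNA.

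Acinar cells make up most of the pancreas and surround the islets. They package inactive precursors of proteases, together with lipases, amylase and ribonuclease, in zymogen granules, and release them into the duct on a meal. Trypsin, once activated in the gut, activates the other proteases, and a trypsin inhibitor stored in the same granules restrains it inside the cell. The factors PTF1A and RBPJL form a complex that drives enzyme genes in acinar cells, and MIST1, the product of Bhlha15, shapes the secretory apparatus in several secretory cell types. In an islet preparation, transcripts of these genes are commonly used as a measure of acinar tissue carried along during picking.

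The 8 libraries held between 15624020 and 19601850 counts, and between 21833 and 24352 genes had at least 1 count. Islet hormone transcripts, the defining markers of the labelled tissue, summed to between 176449 and 349736 CPM in every library (CPM, counts relative to the TMM-scaled size of the library). The gene encoding STING, named Tmem173 in the annotation, had 39, 41, 23 and 39 counts (2.05, 2.02, 1.24 and 2.03 CPM) in the 4 wild-type libraries. In the 4 libraries labelled Sting-/- it had 48, 19, 35 and 27 counts (3.20, 1.08, 1.69 and 1.58 CPM). The ranges overlapped, so these counts do not check the label, and the latter libraries are called knockout-labelled below. Which part of the gene the allele lacks is not given in the sources used here.

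The summed level of the 33 genes differed 16.2-fold between the highest and the lowest library. For wild-type islets the sums were 7639 and 1606 CPM under DMSO and 1802 and 3335 CPM under DMXAA. For knockout-labelled islets they were 1866 and 2723 CPM under DMSO and 519.1 and 472.1 CPM under DMXAA. Lists of 8 values without group names follow this order, with replicate 1 before replicate 2. The last 2 libraries were the lowest of the 8 and close to each other, while wild-type DMSO replicate 1 stood far above all others, including its own replicate. The wild-type DMSO and DMXAA libraries overlapped, and so did the wild-type and knockout-labelled DMSO libraries. As a share of all counts the 33 genes took 0.772% in wild-type DMSO replicate 1 (exact 95% binomial interval 0.768 to 0.776%, counting error only) and 0.0412% in knockout-labelled DMXAA replicate 2 (0.0403 to 0.0421%). Set against the hormone transcripts of the same library, the sums were 32.9, 9.10, 7.28, 16.1, 6.85, 9.70, 2.60 and 1.35 CPM per 1000 hormone CPM, so the highest library and the lowest pair were the same. In bulk RNA, fewer acinar cells and less enzyme RNA per acinar cell cannot be told apart.

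**Figure D1:**
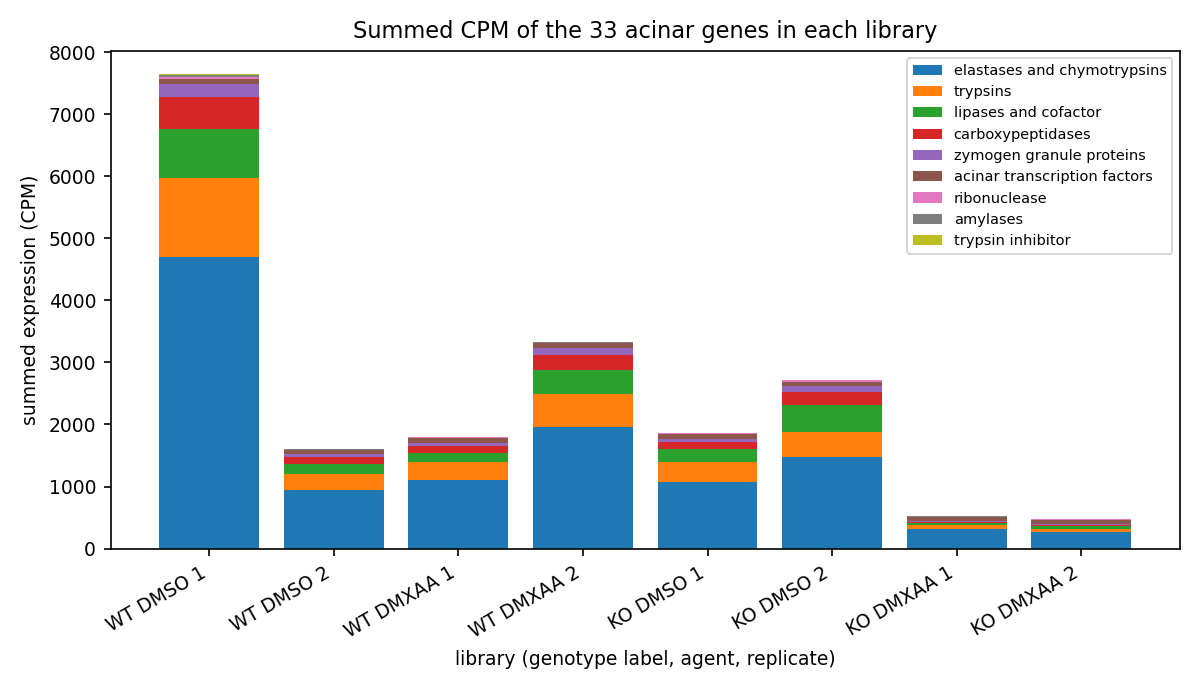
Summed expression of the 33 acinar genes in CPM (vertical axis, linear from 0) for each of the 8 libraries (horizontal axis), with bars stacked by role group. Wild-type DMSO replicate 1 reaches 7639 CPM and the 2 knockout-labelled DMXAA libraries stay at 519.1 and 472.1 CPM, with elastases and chymotrypsins as the tallest segment of every bar.

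By group (mean ± SD, n = 2 each) wild-type islets had a sum of 4622 ± 4266 CPM under DMSO and of 2568 ± 1084 CPM under DMXAA. Knockout-labelled islets had 2294 ± 606 and 495.6 ± 33.3 CPM. The SD of the wild-type DMSO group was nearly as large as its mean. The ratio of group means, DMXAA against DMSO, was -0.85 on the log2 scale in wild-type islets and -2.21 in knockout-labelled islets, a mean 4.63-fold lower in the latter. Without wild-type DMSO replicate 1 the wild-type ratio turned to 0.68. Leaving out any 1 of the 4 knockout-labelled libraries gave values from -2.46 to -1.91. Knockout-labelled against wild-type, the ratio was -1.01 under DMSO, or 0.51 without wild-type DMSO replicate 1, and -2.37 under DMXAA.

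Most of the 33 genes went up and down together from library to library. Of the 28 that passed the filter on low counts (filterByExpr), 25 had their highest CPM in wild-type DMSO replicate 1, and all 28 had their lowest in one of the 2 knockout-labelled DMXAA libraries, 14 in each. Between the replicates of wild-type DMSO the median gene was 2.10 higher in replicate 1 on the log2(CPM + 1) scale, and 28 of 28 were higher there. In wild-type DMXAA the median difference of replicate 1 from replicate 2 was -0.79, in knockout-labelled DMSO it was -0.62 and in knockout-labelled DMXAA it was -0.03. The 5 genes that did not pass the filter were Prss1, Cela3a, Ctrc, Ptf1a and Rbpjl, and they are given by their counts below.

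**Figure D2:**
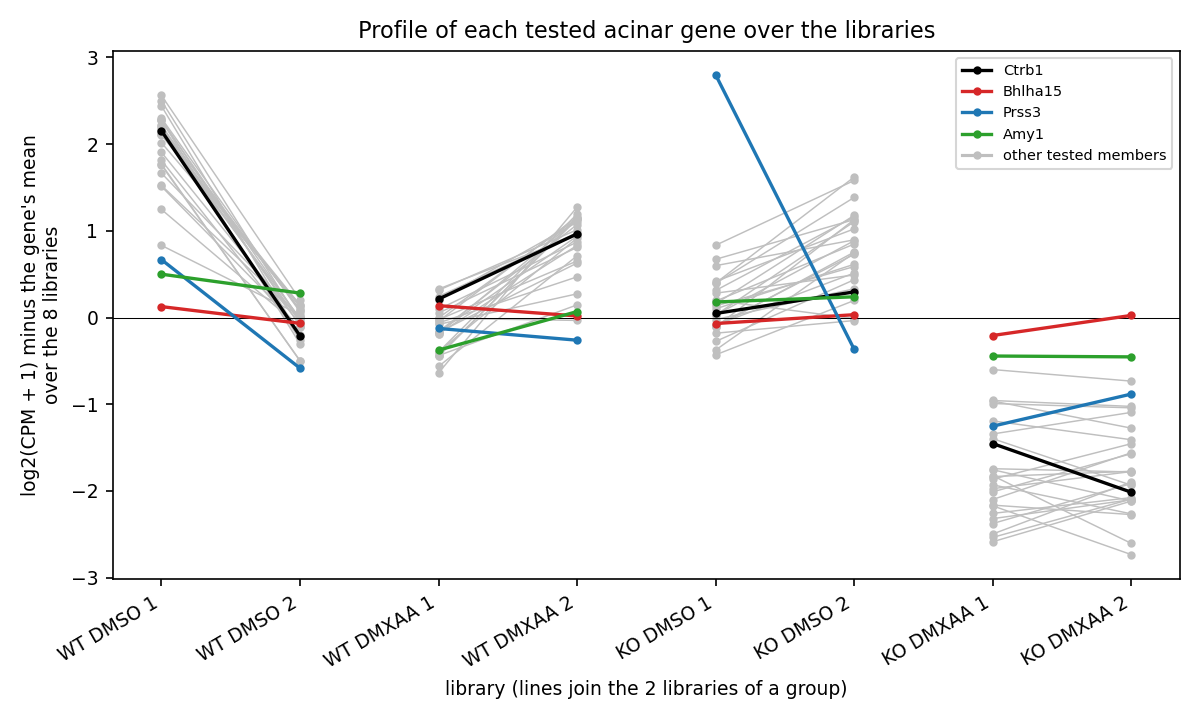
Each of the 28 tested acinar genes as log2(CPM + 1) minus its own mean over the 8 libraries (vertical axis), by library (horizontal axis), with lines joining the 2 libraries of a group. Most lines overlie each other, whereas Bhlha15 stays near 0, Amy1 moves little and Prss3 peaks in knockout-labelled DMSO replicate 1.

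Promoter sequences of the listed genes were searched for features they have in common. RefSeq windows on GRCm38.p6, from 250 bases before to 50 bases after a gene's start, were matched by symbol for 27 of the 33 genes, in 28 windows. These were taken whatever the gene's profile, and include Bhlha15, Amy1 and Prss3, which departed from the shared profile, and Prss1, Cela3a, Ptf1a and Rbpjl, which had too few counts to be tested. The TATA element TATAAA, read on the gene's strand between 45 and 10 bases before the start, was present in 9 of the 28 windows (32.1%), against 2.22% of all 32851 windows. The E-box CACCTG, searched on both strands, was in 53.6% of the windows of these genes and in 20.2% of all windows, and CAGCTG was in 25.0% and 16.3%. The PTF1 complex is known to bind an E-box followed by a TTTCCC box. CANNTG followed by TTTCCC at a distance of 2 to 20 bases, on either strand, was found in 5 of the 28 windows (17.9%; Cel, Cpa1, Prss1, Ctrb1 and Cela1), against 2.25% of all windows. CANNTG includes both E-boxes above, so the motifs overlap. A match describes letters only and is not evidence of binding, and the windows of neighbouring trypsin and amylase genes derive from shared ancestry and are not independent. The windows below show Ctrb1, the gene with the highest level, and Cela1, which holds both the paired boxes and the TATA element. Prss2 has the TATA element without the pair, Cpa1 has the pair on the opposite strand, and Bhlha15 has neither. The windows of Prss2 and Bhlha15 do hold CACCTG, read on either strand. Cela3b, the gene closest to the shared profile, also has neither the pair nor the TATA element. Prss3, the gene farthest from that profile, has the TATA element. A link between motifs and profiles was not tested. Each printed window reads 5′ to 3′ on the gene's strand, with the 2 boxes of a pair and the TATA element in capitals.
Ctrb1 (GRCm38.p6 chr8:111690961-111691260, minus strand): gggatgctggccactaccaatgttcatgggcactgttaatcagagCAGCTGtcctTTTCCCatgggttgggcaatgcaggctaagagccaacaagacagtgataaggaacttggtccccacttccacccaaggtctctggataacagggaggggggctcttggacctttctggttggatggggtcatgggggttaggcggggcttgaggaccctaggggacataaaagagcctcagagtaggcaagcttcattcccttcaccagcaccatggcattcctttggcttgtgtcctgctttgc
Cela1 (GRCm38.p6 chr15:100687871-100688170, minus strand): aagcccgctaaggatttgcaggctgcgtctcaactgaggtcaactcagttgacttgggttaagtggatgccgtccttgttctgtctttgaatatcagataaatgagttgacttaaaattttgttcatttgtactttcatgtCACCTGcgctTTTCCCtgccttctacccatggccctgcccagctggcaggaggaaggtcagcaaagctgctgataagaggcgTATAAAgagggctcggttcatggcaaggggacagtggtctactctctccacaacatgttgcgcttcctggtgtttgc
Prss2 (GRCm38.p6 chr6:41521526-41521825, plus strand): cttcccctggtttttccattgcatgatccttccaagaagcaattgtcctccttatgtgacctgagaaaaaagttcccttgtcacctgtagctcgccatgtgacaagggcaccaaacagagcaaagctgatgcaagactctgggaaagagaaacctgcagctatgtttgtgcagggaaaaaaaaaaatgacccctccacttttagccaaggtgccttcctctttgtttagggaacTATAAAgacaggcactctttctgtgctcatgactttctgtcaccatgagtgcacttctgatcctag
Cpa1 (GRCm38.p6 chr6:30638968-30639267, plus strand): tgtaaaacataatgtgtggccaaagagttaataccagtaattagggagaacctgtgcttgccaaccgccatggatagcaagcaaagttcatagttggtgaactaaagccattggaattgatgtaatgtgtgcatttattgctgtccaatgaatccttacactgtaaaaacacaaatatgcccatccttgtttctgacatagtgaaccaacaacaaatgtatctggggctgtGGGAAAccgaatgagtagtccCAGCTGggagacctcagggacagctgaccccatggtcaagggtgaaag
Bhlha15 (GRCm38.p6 chr5:144190036-144190335, plus strand): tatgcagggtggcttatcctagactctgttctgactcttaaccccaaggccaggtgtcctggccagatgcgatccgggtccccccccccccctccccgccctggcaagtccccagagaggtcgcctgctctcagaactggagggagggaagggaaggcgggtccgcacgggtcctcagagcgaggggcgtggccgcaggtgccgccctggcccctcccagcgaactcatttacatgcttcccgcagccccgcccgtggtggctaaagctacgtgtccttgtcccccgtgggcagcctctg
In Ctrb1 and Cela1 the 2 boxes lie 4 bases apart, and in Cpa1, where they read in the reverse direction as GGGAAA and CAGCTG, 15 bases apart.

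Chymotrypsins and elastases, which cut proteins at aromatic or at small side chains, supplied between 54.4 and 61.5% of the summed CPM in every library. Ctrb1, encoding chymotrypsinogen B (mm10 chr8:111686519-111691010, minus strand), had the highest level of all 33 genes, with a mean of 999.2 CPM per kilobase of exon. Its level was 2768 and 535.9 CPM (wild-type) and 641.2 and 762.1 CPM (knockout-labelled) under DMSO, and 719.2 and 1213 CPM (wild-type) and 226 and 153 CPM (knockout-labelled) under DMXAA. The knockout-labelled DMXAA pair lay below every other library, and the wild-type treatment groups overlapped. DMXAA against DMSO, the log2 difference of Ctrb1 was -1.89 in knockout-labelled islets (SE 0.85, edgeR adjusted p = 0.759) and -0.77 in wild-type islets (SE 0.82, adjusted p = 0.744). Its wild-type value turned to 0.87 without wild-type DMSO replicate 1. Cela3b, a proelastase gene (chr4:137420999-137430540, minus strand), followed the median profile most closely, with an SD of its departures of 0.16 on the log2 scale over the 8 libraries. It measured 452.2 and 86.0 CPM (wild-type) and 105.2 and 166.5 CPM (knockout-labelled) under DMSO, and 80.9 and 164.8 CPM (wild-type) and 26.6 and 20.5 CPM (knockout-labelled) under DMXAA. The pattern was that of the sum, with the knockout-labelled DMXAA libraries alone at the bottom. Its log2 difference with DMXAA was -2.53 in knockout-labelled islets (SE 0.95, edgeR adjusted p = 0.690). Cela1, Cela2a and Ctrl had log2 differences of -2.07, -3.21 and -3.41 in the same comparison. Cela2a and Ctrc share 10.2% and 10.3% of their 150-base transcript windows with each other, so their counts are uncertain in that part. Ctrc, encoding chymotrypsin C, had 31 counts in all and at most 8 in a library. Cela3a was at 0 in all 8 libraries, where 3 counts would equal 0.145 to 0.200 CPM.

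Trypsinogen genes supplied 12.2 to 17.0% of the sum. The 6 members lie in the same cluster on chromosome 6. Prss2, encoding trypsinogen 2 (chr6:41521787-41525079, plus strand), had the highest level among them, 218.1 CPM per kilobase on average. It measured 543.5 and 128.3 CPM (wild-type) and 129.2 and 184.9 CPM (knockout-labelled) under DMSO, and 142.7 and 238.3 CPM (wild-type) and 30.9 and 24.3 CPM (knockout-labelled) under DMXAA. The 6 other libraries all exceeded the knockout-labelled DMXAA pair by more than 4 times. The log2 difference with DMXAA was -2.51 in knockout-labelled islets (SE 0.80, edgeR adjusted p = 0.597) and -0.82 in wild-type islets (SE 0.74, adjusted p = 0.700). Its wild-type value turned to 0.59 without wild-type DMSO replicate 1. Try4 and Try5 had mean levels of 117.7 and 137.7 CPM per kilobase and log2 differences of -3.01 and -2.01 in knockout-labelled islets. They share 19.2% and 16.6% of their 150-base windows with each other. Try10 had few counts, with at most 2.95 CPM.

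Prss3, a trypsinogen gene on the minus strand of the same cluster (chr6:41373814-41377678), departed most from the shared profile, with an SD of departures of 1.38. Its counts were 53 and 12 (wild-type) and 234 and 15 (knockout-labelled) under DMSO, and 22 and 19 (wild-type) and 0 and 5 (knockout-labelled) under DMXAA. One library, knockout-labelled DMSO replicate 1, held 234 of the 360 counts. There Prss3 reached 12.1 counts per 100 counts of Prss2, against 0 to 1.20 in the other 7 libraries. Neighbouring genes were looked up after these values were seen. Prss1 had 4 counts, all in that library. Gm5771, a trypsinogen-like gene outside the list, had 95 counts there and 5, 1, 0, 0, 0, 0 and 0 in the others. Prss3 shares 31.2% of its 150-base windows with Gm10334, Gm5771 or Prss1, so the assignment of these reads among the copies is uncertain. The log2 difference of Prss3 with DMXAA in knockout-labelled islets, -5.84 (SE 2.09, edgeR adjusted p = 0.619), was -2.61 without that library. A further trypsinogen-like gene of the cluster outside the list, 2210010C04Rik, had 4039, 692, 741, 1605, 675, 1209, 177 and 126 counts, from wild-type DMSO through wild-type DMXAA and knockout-labelled DMSO to knockout-labelled DMXAA, and had no peak in that library.

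The pancreatic lipases, which split dietary fat, and colipase, the cofactor that anchors lipase to fat droplets, supplied 5.61 to 16.1% of the sum. Pnlip, encoding pancreatic triglyceride lipase (chr19:58652498-58681788, plus strand), measured 344.1 and 56.7 CPM (wild-type) and 92.8 and 217.9 CPM (knockout-labelled) under DMSO, and 44.7 and 171.1 CPM (wild-type) and 11.3 and 15.7 CPM (knockout-labelled) under DMXAA. Replicates of 3 groups were more than 2-fold apart, and only the knockout-labelled DMXAA pair was close. The log2 difference of Pnlip with DMXAA was -3.53 in knockout-labelled islets (SE 1.29, edgeR adjusted p = 0.679) and -0.89 in wild-type islets (SE 1.14, adjusted p = 0.796). Its wild-type value turned to 0.95 without wild-type DMSO replicate 1. Clps, the colipase gene, had 55.5, 10.7, 11.1, 35.9, 28.5, 48.6, 1.94 and 3.45 CPM, from wild-type DMSO through wild-type DMXAA and knockout-labelled DMSO to knockout-labelled DMXAA. Against the shared profile Clps stood 0.72 and 0.84 higher in the 2 libraries of knockout-labelled DMSO islets, and between 0.67 lower and 0.23 higher in the other 6 libraries on the log2 scale. Pla2g1b, encoding the pancreatic phospholipase A2, was among the flatter genes, with an 8.03-fold range. The 6 genes of this group had log2 differences from -3.86 to -2.40 with DMXAA in knockout-labelled islets.

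The products of both carboxypeptidase genes trim amino acids from the end of peptides. Cpa1 (chr6:30639218-30645363, plus strand) measured 320.6 and 72.5 CPM (wild-type) and 74.4 and 135.5 CPM (knockout-labelled) under DMSO, and 83.9 and 157.3 CPM (wild-type) and 14.4 and 16.5 CPM (knockout-labelled) under DMXAA. The lowest pair again stood apart from the other 6 libraries. The log2 difference of Cpa1 with DMXAA was -2.77 in knockout-labelled islets (SE 0.90, edgeR adjusted p = 0.616), and -0.70 in wild-type islets (SE 0.81, adjusted p = 0.768). Its wild-type value turned to 0.75 without wild-type DMSO replicate 1. Cpb1 had the widest range of any gene detected in every library, 48.8-fold, and a log2 difference of -3.40.

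Amylase, which splits starch, is an abundant acinar product, yet the 3 amylase genes of the list took only 0.215 to 0.466% of the sum. Amy2b (chr3:113147656-113156727, minus strand) had 18.6 and 3.00 CPM (wild-type) and 2.80 and 5.72 CPM (knockout-labelled) under DMSO, and 1.99 and 3.49 CPM (wild-type) and 0.775 and 0.527 CPM (knockout-labelled) under DMXAA. It followed the shared profile, and its log2 difference with DMXAA was -2.70 in knockout-labelled islets (SE 1.27, edgeR adjusted p = 0.756). In wild-type islets the difference was -1.97 (SE 0.90, edgeR adjusted p = 0.457). Without wild-type DMSO replicate 1 this wild-type difference did not turn positive. The remaining DMSO library had 3.00 CPM, against a wild-type DMXAA mean of 2.74 CPM. The mouse genome holds near-identical pancreatic amylase copies, and Amy2a5 shares 41.8% of its 150-base windows with them, so how reads that fit several copies were assigned is uncertain. The 6 copies together summed to 40.2, 7.72, 9.58, 16.9, 7.94, 22.7, 1.36 and 1.52 CPM, from wild-type DMSO through wild-type DMXAA and knockout-labelled DMSO to knockout-labelled DMXAA, which is 0.261 to 0.834% of the sum of the 33 genes. As in the sum, wild-type DMSO replicate 1 was the highest and the 2 knockout-labelled DMXAA libraries were the lowest. Amy1, which encodes salivary amylase, varied only 2.53-fold and showed -0.96 as its log2 difference (SE 0.37, edgeR adjusted p = 0.549). It shares 29.7% of its windows with Rnpc3, a gene on the same strand that overlaps it.

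Rnase1, the pancreatic ribonuclease gene (chr14:51144998-51146785, minus strand), measured 31.7 and 5.85 CPM (wild-type) and 14.4 and 20.2 CPM (knockout-labelled) under DMSO, and 7.59 and 13.9 CPM (wild-type) and 1.89 and 1.81 CPM (knockout-labelled) under DMXAA. Its log2 difference with DMXAA was -3.22 in knockout-labelled islets (SE 1.01, edgeR adjusted p = 0.573) and -0.79 in wild-type islets (SE 0.81, adjusted p = 0.731). Its wild-type value turned to 0.90 without wild-type DMSO replicate 1. Rnase1 took 0.772 and 0.740% of the sum in the knockout-labelled DMSO libraries and 0.364 to 0.421% in the other 6. Spink1, encoding the trypsin inhibitor, measured 10.9, 3.15, 3.12, 8.12, 2.07, 3.74, 0.629 and 0.936 CPM, from wild-type DMSO through wild-type DMXAA and knockout-labelled DMSO to knockout-labelled DMXAA. Against the shared profile it stood 0.59 lower in wild-type DMSO replicate 1 and 0.55 and 0.54 lower in the knockout-labelled DMSO libraries. In the knockout-labelled DMXAA libraries it stood 0.49 and 0.68 higher. Levels of Spink1 there were below 1 CPM, where the 1 added before the log2 flattens a profile. Its log2 difference with DMXAA was -1.92 in knockout-labelled islets (SE 0.93, edgeR adjusted p = 0.740). Knockout-labelled against wild-type under DMXAA, the log2 difference of Spink1 was -2.86 (SE 0.84, edgeR adjusted p = 0.178). These departures from the profile are descriptions and were not tested.

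Transcripts for proteins of the zymogen granule followed those of the enzymes. Sycn, encoding syncollin of the granule membrane (chr7:28540885-28542209, plus strand), measured 112.3 and 26.9 CPM (wild-type) and 38.1 and 44.3 CPM (knockout-labelled) under DMSO, and 27.3 and 69.7 CPM (wild-type) and 11.2 and 7.43 CPM (knockout-labelled) under DMXAA. Its log2 difference with DMXAA was -2.13 in knockout-labelled islets (SE 0.91, edgeR adjusted p = 0.740). The other 3, Zg16, Gp2 and Cuzd1, had differences of -3.25, -2.03 and -3.87. As a share of the sum the 4 genes stayed between 2.80 and 3.48%, so the granule proteins kept nearly the same proportion to the enzymes over the 16.2-fold range.

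Of the 3 transcription factor genes, only Bhlha15 had enough counts for its pattern to be described, and it did not follow the enzymes. Bhlha15 (chr5:144190286-144194441, plus strand) measured 79.3 and 69.3 CPM (wild-type) and 69.2 and 74.3 CPM (knockout-labelled) under DMSO, and 79.9 and 73.5 CPM (wild-type) and 62.7 and 73.9 CPM (knockout-labelled) under DMXAA. Its libraries overlapped between all groups, and the highest was 1.27-fold the lowest. The log2 difference with DMXAA was 0.05 in wild-type islets (SE 0.15, edgeR adjusted p = 0.926) and -0.07 in knockout-labelled islets (SE 0.15, adjusted p = 0.982). In the library with the fewest enzyme transcripts Bhlha15 alone made up 15.6% of the sum, against 1.04% in wild-type DMSO replicate 1. Ptf1a and Rbpjl were near the limit of detection. Ptf1a had 6, 1, 2, 7, 0, 0, 2 and 0 counts, and 23.3% of its windows are shared with Ptf1aos, a gene on the opposite strand, whose reads cannot be told apart without a strand setting. Rbpjl had 13, 1, 5, 6, 2, 4, 0 and 0 counts. No difference between groups was detectable for either at this depth.

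No member was called in any of the 5 comparisons by edgeR's quasi-likelihood test (Benjamini-Hochberg adjusted p under 0.05), fitted on all 17055 tested genes and 8 libraries. DMXAA against DMSO in knockout-labelled islets gave 0 of 28, against a background of 0.375% of all tested genes. All 28 log2 differences were negative, with a median of -2.73 against -0.00058 over all tested genes, and 27 of the 28 had both DMXAA libraries below both DMSO libraries, Bhlha15 being the exception (background for lower without overlap, 17.7%). At an unadjusted p under 0.05, 18 of 28 were lower (background for lower, 3.3%). The smallest adjusted p among the 28 was 0.395. DESeq2 called 8 (background 0.903%) and limma-voom 0 (background 0%, no gene at all).

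In wild-type islets DMXAA against DMSO gave 0 of 28 called (background 1.48%), 2 lower at an unadjusted p under 0.05 (background 6.14%), and 0 called by DESeq2 (background 2.04%) or limma-voom (background 1.45%). The 2 lower at an unadjusted p were Amy2a5 and Amy1, with log2 differences of -1.89 and -0.71. The median was -0.83 and 27 of 28 differences were negative, but only Amy1 was lower without overlap (background 23.9%). Without wild-type DMSO replicate 1 the median was 0.57, with 0 called. Without wild-type DMSO replicate 2, where the remaining library is assumed to vary like the other groups, 9 members were called, all lower (background 5.53%).

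The difference between the 2 DMXAA effects was negative for 28 of 28, with a median of -1.93. It was called for 0 (background 1.2%), for 1 at an unadjusted p under 0.05 (background for lower, 4.04%) and for 0 by DESeq2 (background 1.99%) and limma-voom (background 1.13%). That gene was Zg16, at -2.90 (SE 1.12, edgeR adjusted p = 0.558). Without wild-type DMSO replicate 1, where the remaining library is assumed to vary like the other groups, 5 members were called (background 1.09%). In the full set of libraries the effects of DMXAA on these genes were thus not shown to differ between the genotypes.

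**Figure D3:**
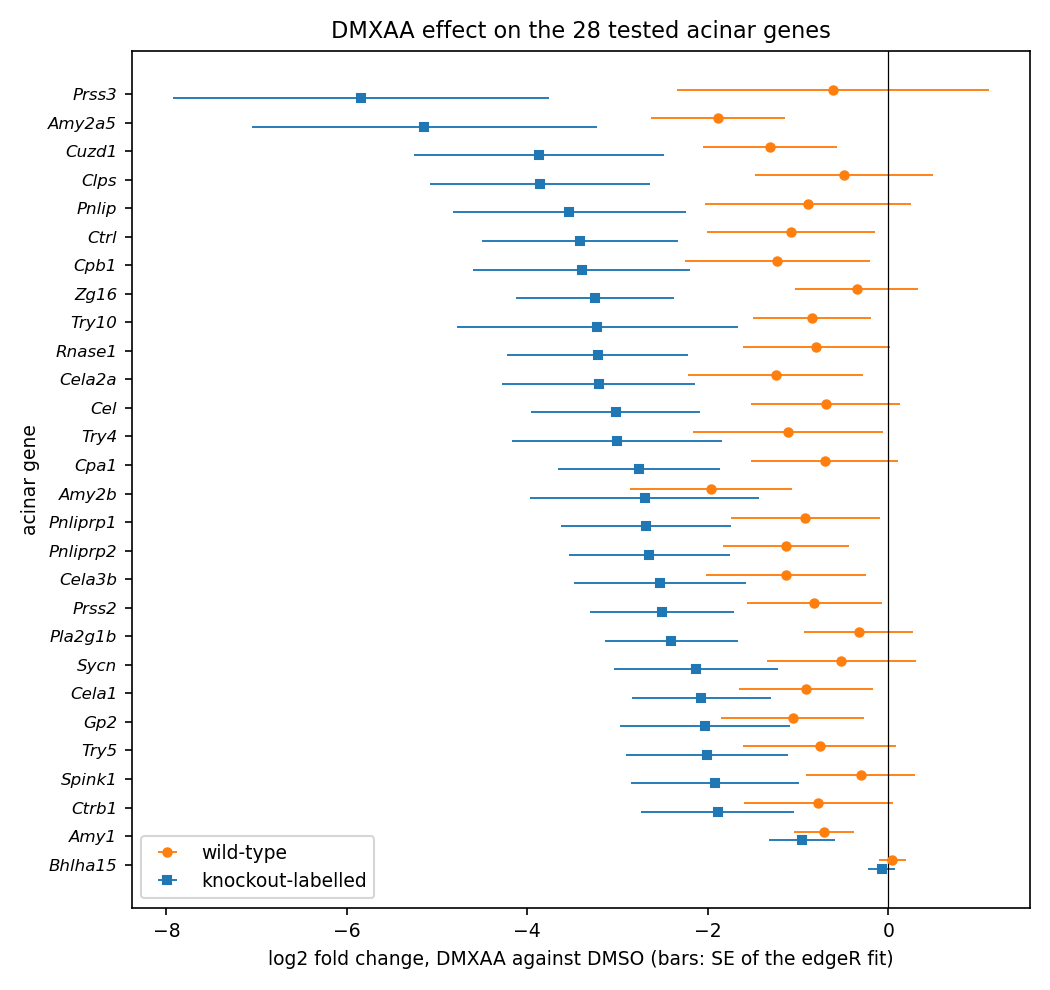
Log2 fold change of DMXAA against DMSO (horizontal axis, bars are the SE of the edgeR fit) for the 28 tested acinar genes (vertical axis), in wild-type islets (circles) and knockout-labelled islets (squares). The knockout-labelled values have a median of -2.73 and the wild-type values one of -0.83, with Bhlha15 near 0 in both and a median SE of 0.95 and 0.82.

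Genotypes were also compared within each agent; these comparisons share libraries with the ones above and with each other's treatment contrasts. Under DMXAA, knockout-labelled islets had lower values than wild-type islets for 28 of 28 genes (median -2.82), and 27 did not overlap (background for lower, 21%). None was called by edgeR (background 2.39%) or limma-voom (background 2.3%), 16 were lower at an unadjusted p under 0.05 (background for lower, 7.17%), and 16 were called by DESeq2 (background 4.11%). Under DMSO, 25 of 28 were negative (median -0.96), and 1 was lower without overlap (background 22.4%). None was called by edgeR (background 0.223%), DESeq2 (background 1.01%) or limma-voom (background 0.106%), and 2 were lower at an unadjusted p under 0.05 (background for lower, 5.42%). Without wild-type DMSO replicate 1 the median under DMSO was 0.52, and without replicate 2 of that group, which again leaves 1 library in the group, 7 members were called (background 1.33%).

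The number of called members differed between fits. A fit on the 4 knockout-labelled libraries alone called 21 of 28 members lower with DMXAA, with log2 differences from -5.13 to -1.89 and edgeR adjusted p from 0.000137 to 0.0476 (background 0.804%). The 7 not called there were Amy1, Bhlha15, Cuzd1, Pla2g1b, Prss3, Spink1 and Try10. A fit on the 4 DMXAA libraries called 18 of 28 lower in knockout-labelled islets (background 1.84%). With all libraries but wild-type DMSO replicate 1 the 2 comparisons gave 10 (background 0.647%) and 12 called members (background 2.8%), and with all but wild-type DMSO replicate 2 they gave 9 (background 0.717%) and 12 (background 2.87%). Without knockout-labelled DMSO replicate 2, Prss3 alone was called with DMXAA in knockout-labelled islets (background 0.0332%). The DMSO group is then 1 library, assumed to vary like the other groups, and it is the library that held 234 of the 360 Prss3 counts. DESeq2, which called 8 and 16 members, used all 8 libraries. The cause of these differences was not tested. The log2 differences hardly moved: the median in knockout-labelled islets was -2.70 in the fit on 4 libraries and -2.73 in the fit on 8.

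**Figure D4:**
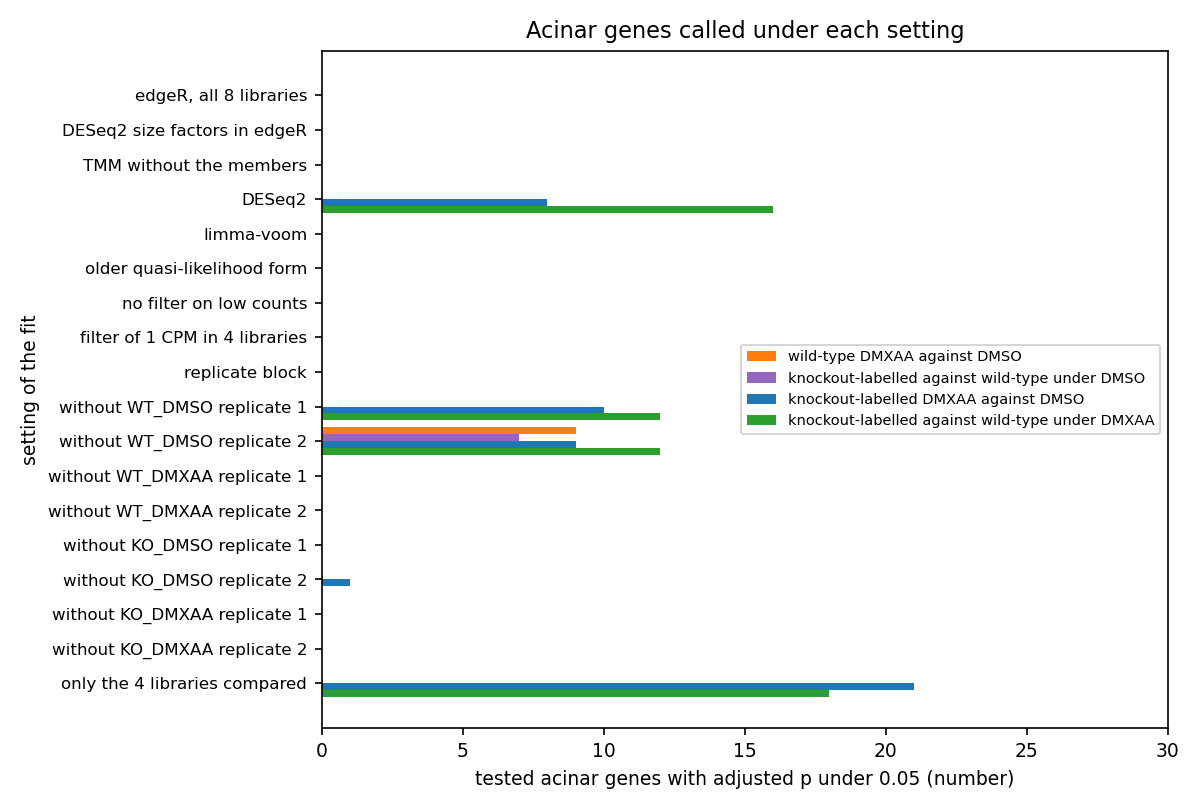
Number of the 28 tested acinar genes with an adjusted p under 0.05 (horizontal axis) in 4 comparisons (colours) under each setting of the fit (vertical axis); no bar stands for 0. Bars appear for DESeq2, for fits without a wild-type DMSO library, for the fits on only 4 libraries (21 and 18 genes) and, for 1 gene, without knockout-labelled DMSO replicate 2.

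Genes outside the list with the most similar profile were found by Pearson's r between their log2 CPM and the log2 sum of the 33 genes over the 8 libraries, as a description. Of 12630 genes with a symbol and a mean of at least 1 CPM, 25 had r above 0.9. Among the 10 closest were Klk1 (r = 0.990), Tff2 (0.983), Chek1 (0.964), Eny2 (0.949), Bckdhb (0.949), Atrip (0.945), Reg1 (0.944), Srp19 (0.939) and Snora41 (0.938). Klk1, a tissue kallikrein gene, measured 89.5, 23.4, 24.7, 46.1, 20.3, 33.3, 6.29 and 7.84 CPM. It had the same highest library and the same lowest pair as the sum. Eny2, by contrast, had an r of 0.949 with levels between 44.9 and 60.0 CPM, a far smaller range. Among the 5 most opposed genes were Dcdc2a (r = -0.962), Specc1l (-0.958), Epdr1 (-0.956) and Sft2d3 (-0.953), and none of the genes named here was called in any of the 5 comparisons by edgeR. All of these values share the same 8 libraries and their scaling.

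A second list of acinar genes, which holds secretory-pathway and other genes beside enzymes, varied little as a sum. Its 26 matched genes summed to 869 to 1209 CPM, a 1.39-fold range. In wild-type and knockout-labelled treatment 0 of 21 tested were called by edgeR (backgrounds 1.48% and 0.375%). At an unadjusted p under 0.05 there were 2 and 5, against backgrounds of 11.9% and 7.3%. Xbp1, a factor of the secretory pathway, alone had 417.4 to 558.2 CPM, so the sum says little about members at low levels. With DMXAA in knockout-labelled islets 16 of the 21 tested genes were negative, with a median of -0.50. Klk1 and Tff2, named above for profiles close to the sum of the 33 genes, belong to this list. Their log2 differences there were -1.93 and -2.90 (edgeR adjusted p = 0.736 and 0.650). Of the 21 tested genes 1, Nupr1, a stress-response gene, differed between the genotypes in its response to DMXAA by edgeR (background 1.2%). It measured 133.4 and 155.8 CPM (wild-type) and 172.0 and 138.0 CPM (knockout-labelled) under DMSO, and 216.3 and 271.5 CPM (wild-type) and 123.3 and 95.4 CPM (knockout-labelled) under DMXAA, and the difference was -1.26 (SE 0.26, edgeR adjusted p = 0.0283). It was higher with DMXAA in both wild-type libraries and lower in both knockout-labelled ones, but neither effect was called on its own. The log2 differences were 0.75 in wild-type islets (SE 0.18, edgeR adjusted p = 0.0671) and -0.50 in knockout-labelled islets (SE 0.18, adjusted p = 0.483). The Reg family, secreted lectins of acinar cells, summed to 288.8, 34.4, 58.0, 93.3, 33.6, 40.5, 20.4 and 4.21 CPM, and thus shared the highest library and the lowest group with the enzymes. Of its 5 tested members 0 were called by edgeR in any comparison (backgrounds 0.223 to 2.39%). At an unadjusted p under 0.05 there was at most 1, lower in knockout-labelled than in wild-type islets under DMSO (background for lower, 5.42%).

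Markers of other cells that an islet preparation can hold were summed in the same way. Duct cell markers ranged from 1149 to 2110 CPM and overlapped between DMSO and DMXAA in both genotypes, and hormone genes did so as well. Much of the duct sum came from Spp1 (305.5 to 1332 CPM) and Krt7 (285.3 to 449.4 CPM). The keratin gene Krt19, one of the 12 duct markers, was at 17.1, 8.56, 7.59, 14.5, 6.67, 8.15, 3.00 and 4.97 CPM and was called in none of the comparisons by edgeR. With DMXAA in knockout-labelled islets Krt19 (-0.91) was among 5 of 11 tested duct genes with a negative log2 difference, and the median of the 11 was 0.04. Markers of B and T lymphocytes summed to 44.6, 4.43, 5.17, 8.22, 127.1, 92.6, 7.50 and 11.9 CPM. They were highest in the knockout-labelled DMSO libraries and, like the enzymes, lower in the knockout-labelled DMXAA libraries; 3 of 10 were called lower there by edgeR (background for lower, 0.211%). Endothelial markers went the other way in knockout-labelled islets, with 856.8 and 777.9 CPM under DMSO and 1420 and 1300 CPM under DMXAA, and 2 of 12 called higher (background for higher, 0.164%). In wild-type islets they summed to 904.1 and 1153 CPM under DMSO and 715.6 and 743.8 CPM under DMXAA, with 3 of 12 called lower (background for lower, 0.375%). The difference between the 2 DMXAA effects was positive for 12 of 12 endothelial genes and called for 6 by edgeR (background for higher, 0.668%). Stellate and fibroblast markers were also higher with DMXAA in knockout-labelled islets, at 415.4 and 380.7 against 234.7 and 223.3 CPM. There 0 of 12 were called by edgeR (background 0.375%) and 3 were at an unadjusted p under 0.05 (background 7.3%). In wild-type islets the same markers had 432.2 and 295.0 CPM under DMSO and 164.7 and 297.1 CPM under DMXAA, which overlapped. Their log2 ratio of means was -0.66, with 0 of 12 called by edgeR (background 1.48%) and 2 at an unadjusted p under 0.05 (background 11.9%). Macrophage markers in wild-type islets were lower with DMXAA, at 69.9 and 67.6 against 110.3 and 77.8 CPM, and in knockout-labelled islets they overlapped, at 89.4 and 169.7 against 97.8 and 95.6 CPM. In both genotypes 0 of 12 were called by edgeR (background 1.48% in wild-type and 0.375% in knockout-labelled islets). At an unadjusted p under 0.05 there were 4 in wild-type (background 11.9%) and 1 in knockout-labelled islets (background 7.3%). None of the 12 markers of the duct, endothelial, stellate, macrophage or lymphocyte list was at 0 in every library. Their part in the differences of the enzyme genes was not tested.

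**Figure D5:**
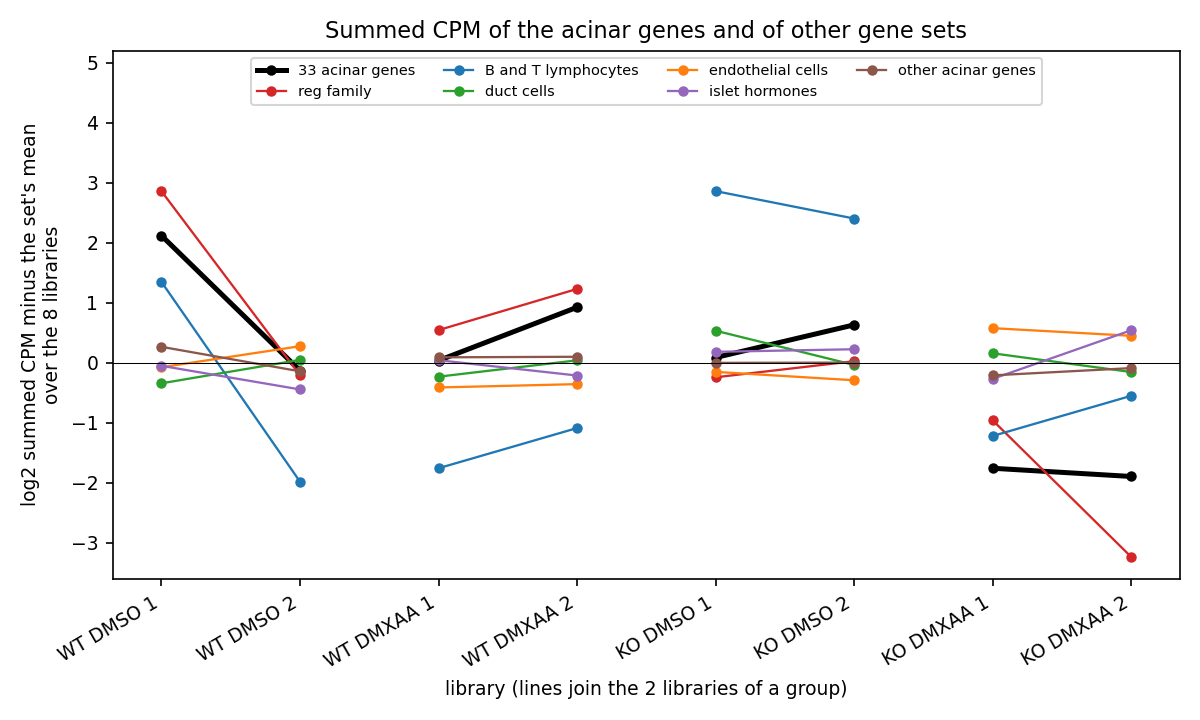
Summed CPM of the 33 acinar genes and of 6 other gene sets, as log2 minus each set's mean over the 8 libraries (vertical axis), by library (horizontal axis), with lines joining the 2 libraries of a group. The Reg family sum shares its highest library and its lowest group with the acinar sum, but its replicates in that group lie apart (20.4 and 4.21 CPM). Lymphocyte markers peak in the knockout-labelled DMSO libraries (127.1 and 92.6 CPM), and duct, hormone and second-list acinar sums stay within a 2-fold range.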

How the data were processed

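Each deposited file lists raw counts by Ensembl gene for 1 library. HISAT2, HTSeq and the build mm10 are named, without versions, per the submitters' processing notes. For the annotation release and strand setting the sources used here give nothing. Symbols and coordinates came from GENCODE M21 (54495 of 54532 identifiers). Groups follow the labels' genotype and agent. All libraries of a group differed by more than sampling noise (chi-square per degree of freedom 6.83 to 53.8).

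Counts were analysed in R 4.3.3 with edgeR 4.0.16: filterByExpr by group (17055 genes), TMM scaling, 1 coefficient per group (4 residual degrees of freedom) and quasi-likelihood F-tests (robust dispersion, legacy=FALSE). SE is the absolute log2 difference divided by the square root of F. CPM uses the scaled library sizes. The pipeline was tested on simulated data. DESeq2 1.42.0, limma-voom (limma 3.58.1), other scalings, filters and sets of libraries were alternatives.

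Named genes were the highest of each role group, the 3 transcription factors, the members nearest to and farthest from the median profile, and the non-members with the 10 highest and 5 lowest correlations. Of these non-members, 2 are not reported here. At most 3 members of each other list were to be named. Members and lists were chosen with earlier results of these data known. Shared transcript windows were counted over 150 bases. Promoter sequences are RefSeq's (GRCm38.p6).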

Additional observations from a re-analysis of the deposited data

Results flagged for a closer look

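Nupr1, from the second list of acinar genes, had a DMXAA effect that differed between the genotypes by a test of the difference itself, at -1.26 on the log2 scale (knockout-labelled minus wild-type, SE 0.26, edgeR adjusted p = 0.0283). Both wild-type DMXAA libraries (216.3 and 271.5 CPM) were above both wild-type DMSO libraries (133.4 and 155.8 CPM), and both knockout-labelled DMXAA libraries (123.3 and 95.4 CPM) were below both knockout-labelled DMSO libraries (172.0 and 138.0 CPM). Of the 21 tested genes of that list, Nupr1 was the only 1 called for this difference (background 1.2%). Neither the wild-type nor the knockout-labelled effect was called on its own (edgeR adjusted p = 0.0671 in wild-type and 0.483 in knockout-labelled islets).

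The summed CPM of 12 endothelial markers was lower with DMXAA in both wild-type libraries, with a log2 ratio of group means of -0.50, and higher in both knockout-labelled libraries, with a ratio of 0.73. The difference between these 2 ratios of sums was not itself tested. Gene by gene, the knockout-labelled minus wild-type difference of the DMXAA effects was positive for 12 of 12 endothelial markers. The difference was called for 6 by edgeR (background for higher, 0.668%). The 3 with the smallest adjusted p were Kdr at 1.71 on the log2 scale (SE 0.21, edgeR adjusted p = 0.000687), Eng at 1.33 (SE 0.21, adjusted p = 0.00604) and Flt1 at 1.55 (SE 0.26, adjusted p = 0.0078). For the sum of the 33 acinar genes the log2 ratio was -2.21 in knockout-labelled islets. In wild-type islets, where the groups overlapped, it was -0.85, or 0.68 without wild-type DMSO replicate 1.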

How the results depend on the processing

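With the replicate number as a block, 0 members were called by edgeR in each of the 5 comparisons, and 259, 61, 217, 56 and 417 of all genes against 253, 64, 204, 38 and 407 without it, in the order wild-type treatment, knockout-labelled treatment, difference of effects, genotypes under DMSO, genotypes under DMXAA. Deviations of same-numbered libraries correlated between -0.136 and 0.128, so the numbers were not taken as pairs. The count of called members stayed at 0 with DESeq2's size factors in edgeR, TMM without the members, limma-voom, the older quasi-likelihood form and both other filters. It moved in knockout-labelled treatment with DESeq2 (8) and with only the 4 libraries compared (21), and between genotypes under DMXAA with DESeq2 (16) and with only the 4 libraries (18). With 1 library left out, the count ran from 0 to 9 in wild-type treatment, 0 to 10 in knockout-labelled treatment (1, Prss3, without knockout-labelled DMSO replicate 2), 0 to 5 for the difference, 0 to 7 between genotypes under DMSO and 0 to 12 under DMXAA. Counts over all genes that moved by more than 1.5 times in the knockout-labelled treatment included 154 with DESeq2, 0 with limma-voom, 29 with the older form, 177 with no filter and 0 with the stricter filter. The cause was not tested.

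With 1 library left out, log2 differences in wild-type treatment ran from -1.41 to 0.75 for Cpa1, -1.52 to 0.87 for Ctrb1, -2.16 to 0.95 for Pnlip, -1.55 to 0.90 for Rnase1, -1.16 to 0.85 for Spink1, -1.51 to 0.59 for Prss2, -1.35 to 0.87 for Sycn, -1.88 to 0.53 for Cela3b, -1.35 to 0.89 for Prss3 and -0.047 to 0.16 for Bhlha15, with each highest value without wild-type DMSO replicate 1. Spink1 and Sycn also turned positive without wild-type DMXAA replicate 1. Amy2b, by contrast, kept its negative sign in wild-type treatment under every alternative. For Bhlha15 in knockout-labelled treatment they ran from -0.17 to 0.047. The log2 ratios of the sums turned positive without wild-type DMSO replicate 1 in wild-type treatment and between genotypes under DMSO (0.68 and 0.51). All 4 kept their sign under other scaling, without Ctrb1, as geometric means, and without Bhlha15, an alternative chosen after seeing the data (-0.87, -2.38, -1.03 and -2.54). Depth limits Ptf1a, Rbpjl, Ctrc, Prss1 and Cela3a, at 0 or few counts.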
